A study of Mus musculus with 12 samples.

Results

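The striatal projection neuron transcription factors described here are 9 genes, Bcl11b, Foxp1, Foxp2, Six3, Meis2, Ebf1, Isl1, Ikzf1 and Zfp503, out of 18193 genes with a probe set of a single gene symbol. They were chosen by name. All 36 probe sets annotated with one of these symbols alone were read, and each gene is led by the one that was brightest on average across the 12 arrays. The arrays came from adult male Swiss mice, an outbred stock, that chose between 5% ethanol, 10% ethanol and water in 3 bottles. Their course ran from 6 weeks of age to 22 weeks, given as 16 weeks in total. The course held 10 weeks of acquisition, 2 weeks of withdrawal, 2 weeks of reinstatement and 2 weeks with quinine, a bitter compound, at 0.005 g/L in the ethanol. Then 1 more week of free choice is given, and how it fits into the 16 weeks is not clear. Inflexible drinkers kept to ethanol even with quinine and had a mean blood ethanol of 113 ± 11.3 mg/dL, while light drinkers took mostly water and had 48 ± 13.3 mg/dL, with the kind of error not stated. Prefrontal cortex and whole striatum of each class were measured on 3 arrays a group, which gives 4 groups. Every group, light drinkers included, had access to ethanol and quinine, and mice that drank water alone were not analysed here.

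Projection neurons, which carry the output of the striatum, arise from the lateral ganglionic eminence and fall into a direct pathway class with dopamine receptor D1 and an indirect pathway class with receptor D2. Bcl11b, Foxp1 and Meis2 mark both classes, Isl1, Ebf1 and Zfp503 are known for the direct pathway, Six3 and Ikzf1 for neurons with enkephalin, and Foxp2 for subsets of both. Several are also made outside the striatum: Bcl11b in deep layer cortical neurons, Foxp1 and Foxp2 in cortical layers, Meis2 in the olfactory bulb and its neuroblasts, and Isl1 in cholinergic neurons.

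The question put to these genes was whether their levels differed between drinking classes within each region, and between regions within each class. The promoters of Bcl11b and Meis2 are shown because these are the members called for a class difference that differed between regions. For Meis2 that call was fragile. That of Six3 is shown as an example of a member higher in striatum in both classes, which Foxp1, Isl1 and Zfp503 were too. Each line gives the 250 bases before the annotated start, 5′ to 3′ on the gene's strand, from RefSeq on GRCm38.p6. Those of Bcl11b and Meis2 lie on the minus strand at chr12:108003415-108003664 and chr2:116064620-116064869, and that of Six3 on the plus strand at chr17:85620584-85620833. Capitals mark TATAAA in Meis2 and TGACAG, the core bound by TALE homeodomain proteins such as Meis2, in Six3.
Bcl11b: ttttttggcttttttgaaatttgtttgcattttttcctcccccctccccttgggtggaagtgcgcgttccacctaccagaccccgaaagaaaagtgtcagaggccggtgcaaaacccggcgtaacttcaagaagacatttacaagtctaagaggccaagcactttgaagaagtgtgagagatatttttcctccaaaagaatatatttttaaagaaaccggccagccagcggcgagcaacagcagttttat
Meis2: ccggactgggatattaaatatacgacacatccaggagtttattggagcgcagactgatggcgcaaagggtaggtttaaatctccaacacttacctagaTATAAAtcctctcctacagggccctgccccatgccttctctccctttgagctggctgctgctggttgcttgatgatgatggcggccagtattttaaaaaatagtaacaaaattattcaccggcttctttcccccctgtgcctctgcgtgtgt
Six3: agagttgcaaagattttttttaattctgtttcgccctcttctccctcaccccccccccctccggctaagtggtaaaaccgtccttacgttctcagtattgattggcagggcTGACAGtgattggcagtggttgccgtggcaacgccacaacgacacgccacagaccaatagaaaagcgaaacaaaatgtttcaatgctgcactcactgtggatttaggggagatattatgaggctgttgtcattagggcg
The search covered TGTTTAC (forkhead), TGACAG, the palindrome bound by Ebf factors, TAATTA (homeodomain) and TATAAA on both strands. Of 32851 RefSeq windows of 250 bases, 3.17%, 15.9%, 0.779%, 4.84% and 12.4% held them in that order. The Bcl11b window held none of these letters, had a GC content of 44.8% and 9 CpG sites, against medians of 52.4% and 6 over all windows. GC content was 47.6% with 7 CpG sites in the Meis2 window and 48.8% with 10 in the Six3 window. Windows were found for 8 of the 9 genes, 12 in all. A Foxp1 window also held TGACAG, with TAATTA, and the windows of Isl1 and Zfp503 held none of the letters searched. Binding to any of these sites was not tested.

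All values below are deposited log2 values of a probe set, and differences are on the same scale. A difference was called when limma gave a Benjamini-Hochberg adjusted p under 0.05 over the 45037 probe sets tested (two-sided, 12 arrays, 4 group means). Levels of different probe sets were not compared, because probes differ in brightness. In tissue such as this, fewer cells of a type and less RNA per cell cannot be told apart. The arrays of a group carry 1 labelled RNA pool concentration and may be repeated hybridisations of that pool, so the p-values cover the spread between arrays and may not cover that between mice.

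Array medians lay between 3.12 and 3.14. The spiked hybridisation controls, added RNA that the mice do not make, split the arrays into 5 with a control mean of 8.08 to 9.07 and 7 with 6.20 to 6.80. The high arrays are prefrontal light 2, prefrontal inflexible 2, striatal light 1, striatal inflexible 1 and striatal inflexible 3, so prefrontal classes hold 1 high array each. No label explains the split. Regional identity was visible in the effector genes of projection neurons (receptors, neuropeptides and signalling proteins), of which 22 of the 27 measured were higher in striatum of light drinkers and 21 in inflexible drinkers. Over all probe sets 1.47% and 0.340% were higher in these comparisons. Tbr1, a cortical excitatory neuron factor, was lower in striatum by 1.23 ± 0.09 (SE) and 1.09 ± 0.09, with limma adjusted p of 6.33e-05 and 6.31e-04. As a list such factors were mixed between regions. Of the 17 measured, 4 were called higher and 6 lower in striatum of light drinkers, and 0 higher and 4 lower in inflexible drinkers. Over all probe sets 3.32% and 0.773% were called either way.

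**Figure D1:**
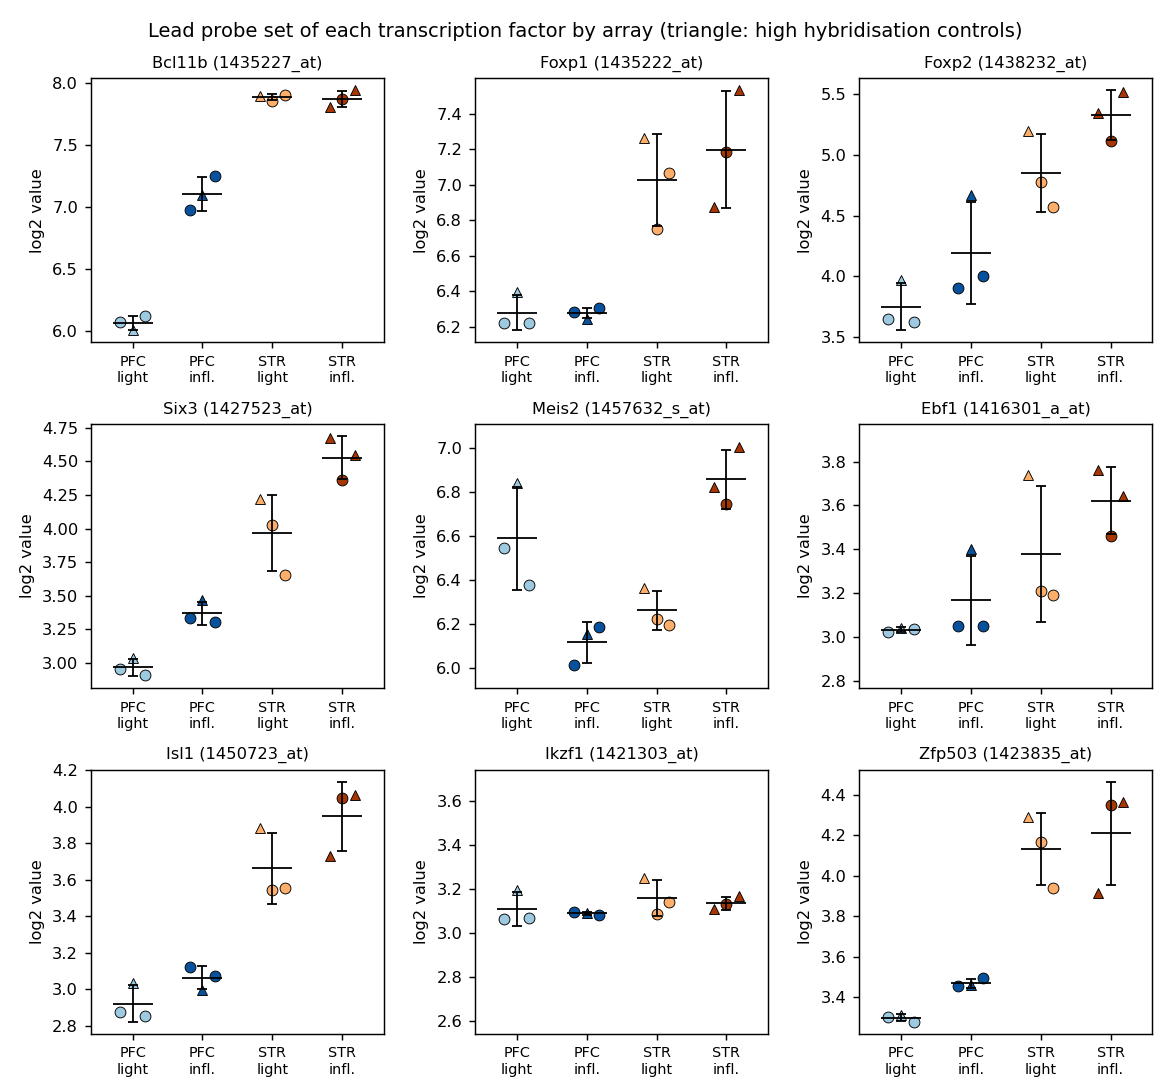
Log2 value of the lead probe set of each of the 9 transcription factors on every array, with 3 arrays in each of the 4 groups (PFC, prefrontal cortex; STR, striatum; infl., inflexible drinkers). Bars give the mean ± SD, triangles mark the 5 arrays with high hybridisation controls, and each panel has its own scale. Bcl11b takes 3 steps, from 6.06 in light prefrontal cortex to 7.11 in inflexible prefrontal cortex and 7.89 and 7.87 in striatum, while Ikzf1 lies near 3.1 in all groups.

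In prefrontal cortex the inflexible drinkers had more Bcl11b transcript than the light drinkers. Bcl11b, also called Ctip2, is a zinc finger repressor needed for projection neurons to mature. Its lead probe set read 6.07, 6.01 and 6.12 on the 3 light prefrontal arrays and 6.98, 7.10 and 7.25 on the 3 inflexible ones. The 2 classes did not overlap. The difference was 1.04 ± 0.06 (SE, n = 3 and 3), or 2.06-fold, with a limma adjusted p of 1.14e-04. It was 1.02 ± 0.09 within the low-control arrays, and 1.09 between the single high-control arrays of each class.

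In striatum the same probe set read 7.89, 7.86 and 7.91 in light and 7.81, 7.87 and 7.94 in inflexible drinkers, and the classes overlapped. The striatal class difference of Bcl11b was -0.01 ± 0.06. The striatal minus the prefrontal difference was -1.06 ± 0.09, with a limma adjusted p of 0.00190, so the class difference of this probe set differed between the regions. That call was lost when each gene was averaged over its probe sets (-0.93, adjusted p = 0.165), and it held without any single array. Within the low-control arrays the value was -1.03. There striatal inflexible 2 is the only array of its group, so no call is drawn from that fit.

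All 4 Bcl11b probe sets were higher in inflexible than in light prefrontal cortex, by 0.68 to 1.04, and 2 of the 4 passed the test. Probe set 1452966_at read 4.44, 4.07 and 4.58 in light and 5.28, 5.15 and 5.27 in inflexible prefrontal cortex. Its difference was 0.87 ± 0.15, with a limma adjusted p of 0.0287. This second call held under 12 of 21 alternatives and was lost with the replicate block over all groups (limma adjusted p = 0.0861). It was lost without any 1 of prefrontal inflexible 1, 2 or 3, prefrontal light 1 or 2 and striatal light 2 (0.73 to 0.91, adjusted p up to 0.119). Probe set 1438784_at had classes that did not overlap either but did not pass (0.79 ± 0.25), and for 1450339_a_at (0.68 ± 0.32) the classes overlapped. In striatum the same 4 sets differed by between -0.14 and -0.01, and none passed. Their shared sign was not kept with the control split as a block. There 1450339_a_at and 1438784_at differed by 0.11 and 0.07, and the lead set and 1452966_at by -0.01 and -0.04.

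Bcl11b was higher in striatum than in prefrontal cortex in both classes. By its lead probe set the difference was 1.82 ± 0.06 in light drinkers, a 3.53-fold difference with a limma adjusted p of 1.21e-06. Among inflexible drinkers it was 0.76 ± 0.06, or 1.70-fold, with a limma adjusted p of 7.09e-04. The light prefrontal arrays enter both the class and the region comparison, so these values are not independent of the prefrontal class difference. Of the 4 probe sets, 4 passed in light and 1 in inflexible drinkers.

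Meis2, a TALE homeodomain factor that acts with Pbx and Dlx partners, had class differences of opposite sign in the 2 regions. The lead probe set read 6.55, 6.84 and 6.38 in light and 6.01, 6.15 and 6.18 in inflexible prefrontal cortex. Light lay above inflexible on every prefrontal array. Its difference was -0.47 ± 0.11, which did not pass (limma adjusted p = 0.134) and passed with the control split as a block (adjusted p = 0.0191). In striatum it read 6.36, 6.22 and 6.20 in light and 6.82, 6.74 and 7.01 in inflexible drinkers. Here inflexible lay above light on every array, by 0.60 ± 0.11, which did not pass either (limma adjusted p = 0.302).

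The striatal minus the prefrontal class difference of Meis2 was 1.07 ± 0.16, with a limma adjusted p of 0.0302. This call is fragile: without single arrays the adjusted p ran from 0.0278 to 0.0943, and it fell below the threshold in 4 of those 12 fits. The 8 arrays whose removal ended it were prefrontal inflexible 1, 2 and 3 (1.02, 1.09 and 1.10), prefrontal light 1 (1.09), striatal inflexible 1 and 3 (1.09 and 0.99) and striatal light 2 and 3 (1.05 and 1.04). The difference itself ran from 0.94 to 1.17 in these fits. Over all 20 alternative settings that gave this term, 8 kept the call.

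A second Meis2 probe set, 1417129_a_at, read 5.95, 5.97 and 5.96 in light and 5.46, 5.45 and 5.48 in inflexible prefrontal cortex. Its striatal values were 5.39, 5.78 and 5.83 in light and 6.22, 6.28 and 5.87 in inflexible drinkers. The 2 classes were apart in both regions and in the same directions as for the lead set, with differences of -0.50 ± 0.12 and 0.46 ± 0.12, neither of which passed. With the control split as a block the prefrontal one passed (limma adjusted p = 0.0446) and the striatal one did not. All 4 sets were lower in inflexible prefrontal cortex, by 0.41 to 0.55, and 3 of the 4 were higher in inflexible striatum, the other, 1440091_at, differing by -0.08 ± 0.11. The lead set and 1447861_x_at carry the suffixes s and x, which the array's maker gives to probe sets that can detect more than 1 transcript.

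Seen between regions, the same interaction is a regional difference of Meis2 that changed with class, and it rests on the same fragile call. In light drinkers striatum lay below prefrontal cortex by 0.33 ± 0.11, which did not pass (limma adjusted p = 0.231), although every light striatal array was below every light prefrontal array. With the control split as a block this difference passed (limma adjusted p = 0.0443). In inflexible drinkers striatum was higher by 0.74 ± 0.11, or 1.67-fold, with a limma adjusted p of 0.0179. That call was lost without any 1 of 5 arrays, prefrontal inflexible 1, 2 or 3 and striatal inflexible 1 or 3, with differences of 0.67 to 0.78 and adjusted p of 0.0614 to 0.0773.

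**Figure D2:**
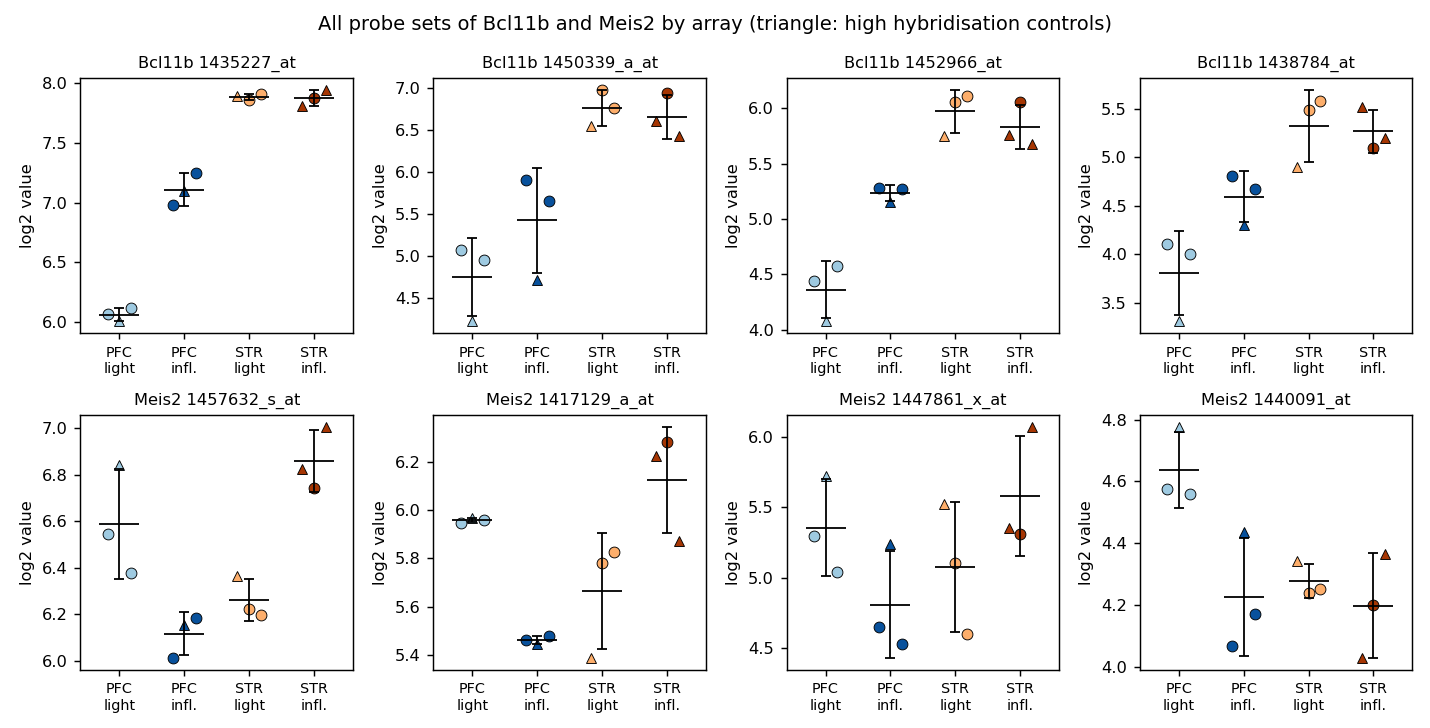
Log2 value of all 4 probe sets of Bcl11b (top) and all 4 of Meis2 (bottom) on each array, with the mean ± SD of 3 arrays per group (PFC, prefrontal cortex; STR, striatum; infl., inflexible drinkers; triangles, high hybridisation controls; own scale per panel). Each Bcl11b set has a higher mean in inflexible than in light prefrontal cortex, and each Meis2 set a lower one.

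Foxp1, a forkhead repressor found in both projection neuron classes, differed between regions in both classes. Its lead probe set read 6.22, 6.39 and 6.22 in light and 6.28, 6.25 and 6.31 in inflexible prefrontal cortex, a class difference of -0.00 ± 0.16. In striatum the values were 7.26, 6.75 and 7.07 in light and 6.88, 7.19 and 7.53 in inflexible drinkers. The classes overlapped in both regions, while every striatal array lay above every prefrontal one. Striatum was higher by 0.75 ± 0.16 in light and 0.92 ± 0.16 in inflexible drinkers, with limma adjusted p of 0.0363 and 0.0359.

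The calls of this set were lost in 9 of 12 fits without a single array in light drinkers and in 8 of 12 in inflexible drinkers, with adjusted p up to 0.132 and 0.135. The array left out was any but striatal light 2 and striatal inflexible 1 and 3 in the first comparison, and any but prefrontal light 2, striatal inflexible 1 and striatal light 1 and 2 in the second. Of the 8 Foxp1 probe sets, 6 were higher in striatum of light and 5 in striatum of inflexible drinkers. The second set, 1455242_at, had the smallest adjusted p of the 8, at 6.28e-05 and 0.00101, for differences of 0.82 ± 0.06 and 0.66 ± 0.06.

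That second Foxp1 set also differed between classes. It read 5.69, 5.86 and 5.71 in light and 6.10, 6.04 and 6.04 in inflexible prefrontal cortex, without overlap. The difference was 0.31 ± 0.06, or 1.24-fold, with a limma adjusted p of 0.0492, and it passed under 5 of 21 alternatives. The call was lost with the replicate block, on the prefrontal arrays alone (limma adjusted p = 0.0889) and over all groups (limma adjusted p = 0.140). Among single arrays left out, only the removal of prefrontal light 2 or striatal inflexible 2 kept the call, and the other 10 gave 0.28 to 0.32 with adjusted p of 0.0539 to 0.207. The 8 Foxp1 sets had prefrontal class differences from -0.25 to 0.31, with 6 above 0 and 2 below. Probe sets of this gene therefore did not show 1 common class difference.

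Foxp2, the forkhead relative known for vocal and motor learning, was higher in striatum. The lead set read 3.65, 3.97 and 3.63 in light and 3.91, 4.67 and 4.00 in inflexible prefrontal cortex, and 5.20, 4.77 and 4.57 in light and 5.35, 5.12 and 5.52 in inflexible striatum. Classes overlapped in both regions, with inflexible 2, a high-control array, above the other prefrontal arrays. The region difference was 1.10 ± 0.22 in light drinkers (limma adjusted p = 0.0267) and 1.14 ± 0.22 in inflexible drinkers, where it did not pass (limma adjusted p = 0.0620). The call in light drinkers was lost without prefrontal light 1 or 3 or striatal light 1 or 2 (0.92 to 1.14, adjusted p 0.0764 to 0.108). In inflexible drinkers the difference passed without prefrontal inflexible 2 (1.38, adjusted p = 0.0228) or striatal light 1 (1.14, adjusted p = 0.0476).

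The second Foxp2 set, 1438231_at, varied less. It read 3.59, 3.64 and 3.58 in light and 3.87, 4.05 and 3.98 in inflexible prefrontal cortex, and 5.26, 4.84 and 4.84 and 5.08, 5.31 and 5.39 in the striatum of the same classes. Region differences of 1.37 ± 0.12 and 1.29 ± 0.12 had limma adjusted p of 1.55e-04 and 0.00106. Of the 6 Foxp2 sets 3 passed in each class. Class differences of the lead set were 0.44 ± 0.22 in prefrontal cortex and 0.48 ± 0.22 in striatum and did not pass (limma adjusted p = 0.760 and 1.00), but with the control split as a block the prefrontal one passed (adjusted p = 0.0436).

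The factors tied to the direct pathway were higher in striatum for Isl1 and Zfp503 and not called for Ebf1. Isl1, a LIM homeodomain factor, read 2.87, 3.04 and 2.85 in light and 3.12, 3.00 and 3.07 in inflexible prefrontal cortex, all near the array medians. Striatal values were 3.89, 3.55 and 3.56 in light and 3.73, 4.05 and 4.06 in inflexible drinkers. Regions were apart and classes overlapped in both regions. Striatum was higher by 0.74 ± 0.11 and 0.89 ± 0.11, with limma adjusted p of 0.00488 and 0.00737, and the other Isl1 set passed in both classes too (0.41 ± 0.06 and 0.36 ± 0.06).

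Isl1 also marks cholinergic interneurons. Of their other markers 7 were measured, and 0 passed limma's test in any comparison, with 0 having a mean of 4 or more. At an unadjusted p under 0.05 there were 2 in each region comparison, all higher in striatum, and 0 in the others. Over all probe sets 11.4% and 7.40% reached this between regions in light and inflexible drinkers. Lhx8, a LIM homeodomain factor of cholinergic neurons, differed by 0.25 ± 0.07 in light and 0.28 ± 0.07 in inflexible drinkers (limma adjusted p = 0.147 and 0.206). The other was Zic4 in light drinkers (0.10 ± 0.04), and in inflexible drinkers Ache, the enzyme that breaks down acetylcholine (0.44 ± 0.15). The mean of these 7 ran from 3.02 to 3.04 and from 3.01 to 3.05 over the arrays of light and inflexible prefrontal cortex, and from 3.05 to 3.17 and from 3.09 to 3.20 in striatum. Chat, the enzyme that makes acetylcholine, differed between regions by -0.05 ± 0.03 and 0.04 ± 0.03.

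Zfp503, also called Nolz1, a zinc finger repressor of the NET family, read 3.30, 3.31 and 3.28 in light and 3.45, 3.46 and 3.49 in inflexible prefrontal cortex. In striatum it read 4.29, 4.17 and 3.94 and 3.92, 4.35 and 4.36. The prefrontal classes did not overlap, yet the difference of 0.17 ± 0.12 did not pass (limma adjusted p = 0.921), and the striatal classes overlapped. Striatum was higher by 0.84 ± 0.12 in light and 0.74 ± 0.12 in inflexible drinkers, with limma adjusted p of 0.00334 and 0.0217. The second of these calls was lost without any 1 of 5 arrays, prefrontal inflexible 1, 2 or 3 and striatal inflexible 2 or 3 (0.66 to 0.75, adjusted p 0.0658 to 0.0881). The other Zfp503 set, 1423836_at, was higher in striatum by 0.32 in light and 0.45 in inflexible drinkers and did not pass. Its prefrontal classes overlapped, with 3.19 to 3.45 in light and 3.32 to 3.72 in inflexible drinkers.

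Ebf1, a helix-loop-helix factor of direct pathway neurons, stayed low. It read 3.02, 3.04 and 3.04 in light and 3.05, 3.40 and 3.05 in inflexible prefrontal cortex, and 3.74, 3.21 and 3.19 and 3.76, 3.46 and 3.64 in striatum. In both regions the highest value lay on a high-control array in each class. Region differences of 0.34 ± 0.15 and 0.45 ± 0.15 did not pass (limma adjusted p = 0.418 and 0.392), nor did those of any of the 5 Ebf1 sets. The lead set passed under 1 of 20 alternatives in light and 3 of 20 in inflexible drinkers. With the control split as a block, 1448293_at passed in inflexible drinkers (0.30, limma adjusted p = 0.0420).

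Among the factors of enkephalin neurons, Six3 was higher in striatum and Ikzf1 did not pass any test. Six3, a homeodomain factor needed to make indirect pathway neurons, read 2.96, 3.04 and 2.91 in light and 3.33, 3.47 and 3.30 in inflexible prefrontal cortex. In striatum it read 4.22, 4.03 and 3.66 in light and 4.68, 4.36 and 4.55 in inflexible drinkers. None of the 4 groups overlapped, in the order prefrontal light, prefrontal inflexible, striatal light, striatal inflexible. Striatum was higher by 1.00 ± 0.13 (2.00-fold) in light and 1.16 ± 0.13 (2.23-fold) in inflexible drinkers, with limma adjusted p of 0.00210 and 0.00417.

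The class differences of Six3, 0.40 ± 0.13 in prefrontal cortex and 0.56 ± 0.13 in striatum, did not pass (limma adjusted p = 0.350 and 0.543). With replicate number, which cannot be told apart from the control split in prefrontal cortex, as a replicate block on those 6 arrays alone, the prefrontal difference passed (limma adjusted p = 0.0238), which raised the members called from 1 to 2. The other 2 Six3 sets lay between 2.82 and 3.25 on all 12 arrays, and neither passed a test. The Six3 result thus rests on 1 probe set, 1427523_at.

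Ikzf1, or Ikaros, a zinc finger factor of blood cells and of enkephalin neurons, read 3.06, 3.20 and 3.07 in light and 3.10, 3.09 and 3.08 in inflexible prefrontal cortex. Its striatal values were 3.25, 3.09 and 3.14 in light and 3.11, 3.13 and 3.17 in inflexible drinkers. These lie at the array medians, with region differences of 0.05 ± 0.05 in both classes. Values this low are compressed by the authors' summary of the probes, so small differences cannot be seen there.

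Counted over the 9 lead sets, 1 passed between classes in prefrontal cortex, where 0.826% of all 45037 probe sets passed and 0.402% were higher in inflexible drinkers. Among the lead sets of all 18193 genes, 189 passed and 105 were higher. An unadjusted p under 0.05 was found for 3 of 9, against 7.61% of all probe sets and 1668 of the 18193 lead sets. In the same comparison 5 of 9 leads, Bcl11b, Six3, Meis2, Ebf1 and Zfp503, had classes that did not overlap, against 12.9% of all probe sets. Meis2 was lower in inflexible drinkers and the others higher. For Ebf1 the gap was small, from a highest light value of 3.04 to a lowest inflexible value of 3.05. Over all 36 sets, 3 passed and 15 did not overlap, and 16 of the 36 had a mean of 4 or more. The median lead difference was 0.14, against 0.0018 over all genes.

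In striatum 0 of 9 leads passed between classes by limma, against 0.0111% of all probe sets, and 3 of 9 had an unadjusted p under 0.05, against 3.53% of all probe sets. Among the lead sets of all 18193 genes, 4 passed and 672 had an unadjusted p under 0.05. Here 2 of 9, Six3 and Meis2, did not overlap, against 7.84%. Of the 36 sets 0 passed by limma and 12 had an unadjusted p under 0.05, read against the same 3.53%. The median lead difference was 0.24, against 0.0030 over all genes. Striatal classes hold unequal numbers of high-control arrays. With the control split as a block the 7 positive lead differences were smaller, such as Foxp2 at 0.32 in place of 0.48 and Ebf1 at 0.15 in place of 0.24. Of the 2 negative ones, Bcl11b stayed at -0.01 and Ikzf1 went from -0.02 to -0.05.

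Between regions 6 of 9 leads were higher in striatum of light drinkers, against 1.47% of all probe sets higher and 3.32% called either way, and 8 of 9 did not overlap, against 16.3%. In inflexible drinkers 6 of 9 were higher, against 0.340% higher and 0.773% called either way, and 9 of 9 did not overlap, against 11.5%. Among the lead sets of all 18193 genes, 397 were higher and 851 called either way in light drinkers, and 102 and 219 in inflexible drinkers. The 9 members are known for striatum, so the direction is the one by which they were picked. Bcl11b, Foxp1, Six3, Isl1 and Zfp503 passed in both classes, Foxp2 in light drinkers and Meis2 in inflexible drinkers. The median lead difference was 0.75 in light and 0.76 in inflexible drinkers, against 0.0017 and 0.0023 over all genes. For the difference between regions in the class difference, 2 of 9 passed, Bcl11b and Meis2, against 0.313% of all probe sets and 80 of the 18193 lead sets.

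**Figure D3:**
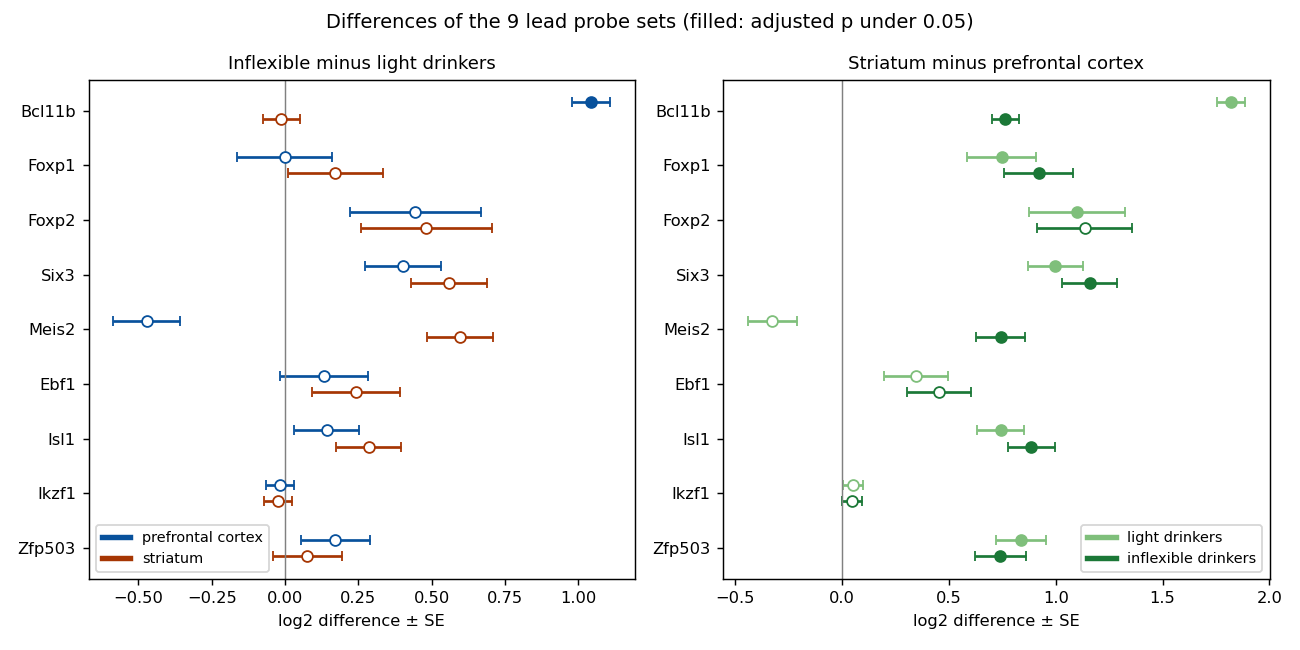
Log2 difference ± SE of the 9 lead probe sets from the limma fit to 12 arrays, between classes in each region (left) and between regions in each class (right), with filled circles for an adjusted p under 0.05. On the left Bcl11b in prefrontal cortex is the one filled circle, at 1.04, and Meis2 lies at -0.47 and 0.60.

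Among the genes that projection neurons use as effectors, some passed between classes in each region. Of the 27 measured, 7 were higher in inflexible prefrontal cortex and 0 lower, against 0.826% of all probe sets called either way. For 15 the unadjusted p was under 0.05, against 7.61% of all probe sets, and the median difference was 0.46. Penk, the enkephalin precursor, was higher by 1.58 ± 0.13, Drd1, the D1 receptor, by 1.25 ± 0.13, Gpr6, a receptor of indirect pathway neurons, by 1.13 ± 0.13, and Kcnab1, a potassium channel subunit, by 1.09 ± 0.11, with limma adjusted p from 7.26e-04 to 0.00439. In striatum 2 were higher in inflexible drinkers, Slc35d3 by 0.94 ± 0.07 and Arpp21 by 0.53 ± 0.05 (limma adjusted p = 0.00249 and 0.0240), against 0.0111% of all probe sets called. There 13 had an unadjusted p under 0.05, against 3.53% of all probe sets, and the median was 0.41, while Bcl11b differed by -0.01. The striatal minus the prefrontal class difference passed for 2 of the 27, Slc35d3 and Arpp21, against 0.313% of all probe sets, and its median was -0.05. The Arpp21 call was lost without any 1 of 9 arrays, with adjusted p of 0.0510 to 0.173.

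Relatives of the members from the same gene families did not pass. Of the 18 measured, such as Ikzf4, Zfp703, Ebf2 and Foxp4, 0 passed limma's test in any of the 5 comparisons, and 2 had a mean of 4 or more. In each comparison 1 to 3 had an unadjusted p under 0.05. Over all probe sets that share was 7.61% and 3.53% between classes in prefrontal cortex and striatum. It was 11.4% and 7.40% between regions in light and inflexible drinkers and 5.62% for the difference between regions. Other factors of the striatal lineage were mixed. In prefrontal cortex 1 of 22 was higher in inflexible drinkers, Rarb, a retinoic acid receptor, by 0.73 ± 0.09, and 2 were lower, Dlx1 by 0.35 ± 0.04 and Sp8 by 0.28 ± 0.04 (limma adjusted p = 0.00471, 0.00583 and 0.00733). Of all probe sets 0.826% were called in that comparison. In striatum 0 of 22 passed between classes by limma and 5 had an unadjusted p under 0.05, against 3.53% of all probe sets, Rarb having the smallest unadjusted p (0.52 ± 0.09). Between regions 6 were higher and 4 lower in striatum of light drinkers, and 4 higher and 2 lower in inflexible drinkers, with Rarb, Rxrg and Foxo1 higher and Dlx1 and Mef2c lower in both. Over all probe sets 3.32% and 0.773% were called either way.

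Some marker lists of other cells and tissue differed in the prefrontal class comparison, where Bcl11b was higher in inflexible drinkers. Others did so little or not at all. Over all probe sets 0.826% passed in that comparison. Astrocyte markers passed for 0 of 8 and mural cell (vessel wall) markers for 0 of 11. Lower in inflexible drinkers were 1 of 9 microglia markers (Ctss), 1 of 9 blood and immune cell markers (Jchain) and 1 of 14 GABAergic interneuron markers (Npy). Of 9 olfactory bulb and neuroblast markers 2 were lower in inflexible prefrontal cortex and 0 higher, Cdhr1 by 1.11 ± 0.14 and Sp8 as above. The mean of these 9 ran from 3.89 to 4.10 over the light and from 3.71 to 3.74 over the inflexible prefrontal arrays, and from 3.64 to 3.76 over all striatal arrays. Of 13 oligodendrocyte and myelin markers 5 were higher and 0 lower, and their mean ran from 4.67 to 4.86 in light prefrontal cortex, 5.51 to 5.61 in inflexible prefrontal cortex, and 5.90 to 6.14 in striatum. Of 10 choroid plexus markers 1 passed, Ttr, the transthyretin gene, higher by 6.25 ± 0.23 (limma adjusted p = 3.88e-06). It read 4.69, 4.36 and 4.55 in light and 11.04, 10.28 and 11.03 in inflexible prefrontal cortex. The mean of the other 9 ran from 2.98 to 3.03 in light and 3.17 to 3.28 in inflexible prefrontal cortex, and was 3.32 or more on every striatal array. The mean of the 27 effector genes ran from 4.46 to 4.49 in light and 5.02 to 5.09 in inflexible prefrontal cortex, from 5.87 to 6.02 in light striatum and from 6.25 to 6.48 in inflexible striatum, so that no 2 groups overlapped.

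Inflexible prefrontal arrays thus lay between light prefrontal and striatal arrays in the effector, myelin and choroid plexus means, as Bcl11b does. The part that tissue makeup takes in the Bcl11b and Meis2 differences was not tested. Of 17 factors of cortical excitatory neurons 1 passed between the prefrontal classes, Neurod6, higher in inflexible drinkers by 0.50 ± 0.09 (limma adjusted p = 0.0344), and 12 had an unadjusted p under 0.05, against 0.826% and 7.61% of all probe sets. Values lay on both sides of 0, with Cux2 at -0.95 ± 0.19, Sox5 at -0.22 ± 0.05 and Cux1 at -0.24 ± 0.07 (limma adjusted p = 0.0578, 0.0725 and 0.276). Their mean ran from 5.22 to 5.33 in light and 5.18 to 5.26 in inflexible prefrontal cortex. The Neurod6 call was lost in 8 of 12 fits without a single array (adjusted p up to 0.150), those without a prefrontal array or without striatal inflexible 2 or striatal light 1. In striatum the same mean ran from 4.89 to 5.11. Of 10 markers of cortical excitatory neurons 0 passed by limma and 5 had an unadjusted p under 0.05, against 7.61% of all probe sets, with a median class difference of -0.36 in prefrontal cortex. Rasgrf2 differed by -0.57 ± 0.13, Rorb by -0.62 ± 0.18 and Lamp5 by -0.53 ± 0.18 (limma adjusted p = 0.0963, 0.276 and 0.375). The mean of these 10 ran from 6.11 to 6.47 in light and 5.79 to 6.24 in inflexible prefrontal cortex, and from 5.34 to 5.90 in striatum.

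**Figure D4:**
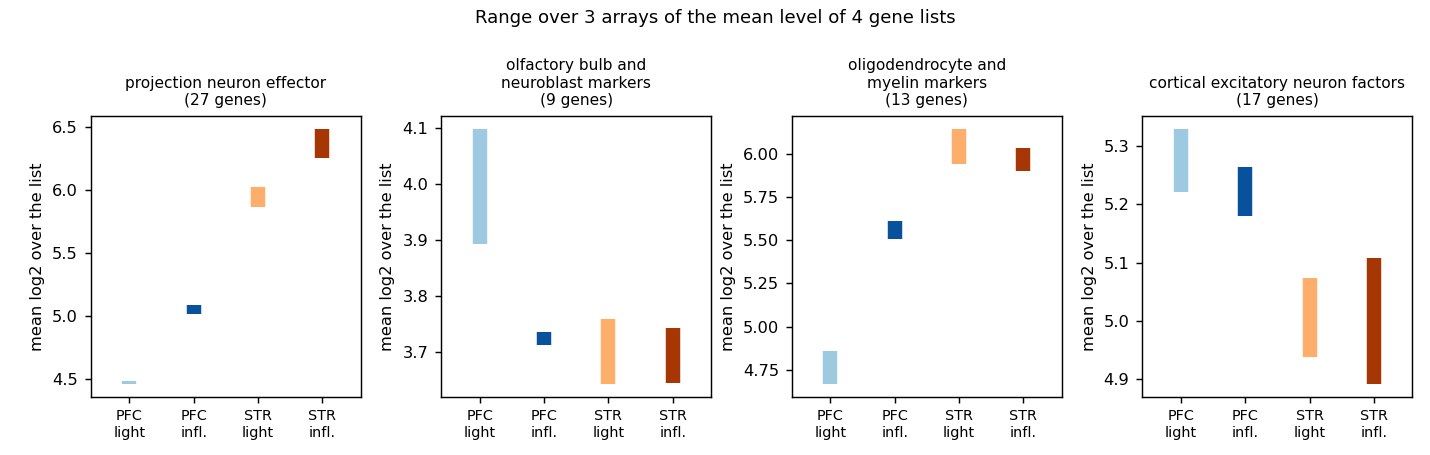
Range over the 3 arrays of each group of the mean log2 value of 4 gene lists (PFC, prefrontal cortex; STR, striatum; infl., inflexible drinkers), each panel with its own scale. Effector and myelin means of inflexible prefrontal cortex (5.02 to 5.09 and 5.51 to 5.61) lie between those of light prefrontal cortex and striatum, and the olfactory bulb mean is highest in light prefrontal cortex (3.89 to 4.10).

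The genes with array profiles most like a member were found among 249 non-member genes whose group means spanned at least 1 log2 unit, by the root mean square difference over the 12 arrays after centring each profile. This is a description with no test. Bcl11b lay closest to Kcnab1 (0.18), Lrrc10b (0.19) and Lpl (0.20). For Foxp2 the closest were Tmem158 (0.17), Ap1s2 (0.19) and Thsd7a (0.23), and for Six3 they were Necab2 (0.18), Arpp21 (0.20) and Adamts3 (0.20). Isl1 lay closest to Adamts3 (0.12), Rgs2 (0.16) and Kcna4 (0.17). The other 5 members spanned less than 1 log2 unit and were not ranked.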

How the data were processed

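RNA of prefrontal cortex and whole striatum was extracted with TRIzol, labelled with biotin and hybridised to 1-colour arrays, per the labels' protocols. The authors deposited 1 table of summarised log2 values per probe set. RMA and affy are named, without versions, in the submitters' processing notes. The log base was read from the values (2.76 to 12.17), and folds assume base 2. This summary compresses low values, so differences of weak genes are understated. Of 45101 probe sets 64 controls were left out. The platform annotation gave 34945 probe sets 1 symbol.

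limma 3.58.1 in R 4.3.3 (lmFit, eBayes, 8 residual degrees of freedom) was fitted to 12 arrays with 4 group means, tested two-sided and adjusted over 45037 probe sets, and was tested on simulated data. The members, lists and rule for named genes (all members, up to 4 genes per list by smallest unadjusted p, 3 profiles most like a member) were chosen with earlier results of these data known. Over 10852 probe sets with a mean of at least 4, deviations of same-numbered prefrontal arrays correlated at 0.62 to 0.85 in all 3 pairs, which met the bar of 0.1 set for treating replicate numbers, taken from the titles, as pairs. Differently numbered low-control prefrontal arrays correlated as highly (0.62 and 0.80), and array 2 is the high-control one in both classes, so the numbers cannot be told apart from the control split. In striatum same-numbered arrays correlated at -0.64 to 0.26. The number of arrays limits the precision. Figures were drawn with Python 3.11.15. The closing section gives the effect of 22 alternative settings.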

Additional observations from a re-analysis of the deposited data

Results flagged for a closer look

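The class difference differed between the regions, by limma's interaction term with adjustment over all probe sets, for 2 members, 3 other transcription factors of the lists, 2 effector genes and 3 markers of other cells. Over all probe sets 0.313% passed this term. The striatal minus the prefrontal difference was -1.06 ± 0.09 (SE) for Bcl11b, with class differences of 1.04 in prefrontal cortex and -0.01 in striatum. It was 1.07 ± 0.16 for Meis2, with -0.47 and 0.60. For Dlx1 it was 0.44 ± 0.06 (limma adjusted p = 0.0208), with -0.35 in prefrontal cortex and 0.09 in striatum, and for Sp8 it was 0.31 ± 0.05 (limma adjusted p = 0.0457), with -0.28 and 0.03. Neurod6, a factor of cortical excitatory neurons, gave -1.0 ± 0.12 (limma adjusted p = 0.0127), with 0.50 in prefrontal cortex and -0.51 in striatum. The effector genes were Slc35d3 (0.61 ± 0.10) and Arpp21 (0.50 ± 0.08), and the markers were Ttr (-6.54 ± 0.32), Mobp of myelin (-1.96 ± 0.25) and Jchain of plasma cells (0.63 ± 0.09), with limma adjusted p of 0.0377, 0.0334, 6.76e-05, 0.0144 and 0.0286 in that order. The cause of these differences was not tested.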

How the results depend on the processing

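Across 22 alternative settings 920 values of members were compared with those reported: 826 kept their call, 76 lost it, 18 gained it and 0 called values changed sign, while 37 uncalled values did. Of 1723 values of called list genes 1422 kept their call, 301 lost it and 0 changed sign. The members called between classes in prefrontal cortex, 1 as reported, were 3 with the hybridisation control block, 2 on low-control arrays, 3 with array weights, 2 with the replicate block on prefrontal arrays alone and 0 on high-control arrays alone, where each class has 1 prefrontal array assumed to vary like the rest. In striatum they stayed at 0. Between regions 6 became 3 with the filter on low values in light drinkers, which leaves fewer members to test, and in inflexible drinkers 3 with the replicate block and 1 with only the 2 groups compared; on high-control arrays both became 0. For the difference between regions 2 became 1 with the replicate block, 1 after quantile normalisation and 1 with gene means. Low-control or high-control arrays alone leave groups of 1 array for this difference, so their calls are not counted. Without single arrays the members called ran from 1 to 1, 0 to 0, 4 to 6, 3 to 7 and 1 to 2 in the order above. The high-control setting and the prefrontal replicate block were chosen after seeing the data. Over all probe sets the 372 calls in prefrontal cortex became 1119 with the control block, 1243 on low-control arrays, 2955 with array weights, 899 with the prefrontal replicate block, 206 with the replicate block over all groups, 215 with the filter, 245 with gene means, 198 with only the 2 groups and 157 to 394 without single arrays. The 1496 and 348 calls between regions became 3152 and 972 with the control block, 4685 and 886 with array weights, 3775 and 504 on low-control arrays and 1014 and 61 with only the 2 groups, and the 141 for the difference between regions became 443, 800 and 178 in the first 3 of these and 51 with the replicate block. The 5 striatal calls became 34 with the control block, 1 with only the 2 groups, 2 with the filter, 0 on low-control arrays and 2 to 9 without single arrays. The high-control arrays number 5 in 4 groups. Their spread comes from striatal inflexible 1 and 3 alone, so their lack of calls decides nothing. Among low-control arrays striatal inflexible 2 is alone in its group, which limits every comparison that uses it. The cause of the changed calls was not tested. Signals near the array medians limit what can be seen of Ikzf1, Ebf1 and, in prefrontal cortex, Isl1 and Six3.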
